A study of Mus musculus with 10 samples.

Results

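The uroplakin genes *Upk1a*, *Upk1b*, *Upk2*, *Upk3a* and *Upk3b*, 5 of the 55536 genes counted in each library, were taken by name as the members of the uroplakin family and read in bladder RNA of 3 genotypes. Bladder libraries of C57BL/6 mice were labelled as 4 WT, 3 OMD-/- and 3 PRELP-/- (the labels spell the last genotype PRLEP-/- and title the libraries PRELP_knockout). In both constitutive knockouts exons 2 and 3, which hold the whole coding sequence, were replaced by a β-galactosidase gene, and the wild-type libraries carry neither change. The labels describe excised, homogenised bladder tissue while the study speaks of isolated bladder epithelia, and age and sex of the mice, pooling, and whether each library came from an animal of its own were not given in the sources used here. The numbers of WT and OMD-/- mice that the study's text gives for this experiment also differ from the numbers of labelled libraries, and the counts of libraries are used as n throughout. The p-values below therefore measure the spread between these libraries only, which may be technical. OMD and PRELP are secreted small leucine-rich proteoglycans, and the comparison of each knockout with WT asks which bladder genes differ in level when either is missing.

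Uroplakins are the membrane proteins of the umbrella cells, the outermost layer of the urothelium that faces the urine. *Upk1a* and *Upk1b* are tetraspanins, and *Upk2*, *Upk3a* and *Upk3b* cross the membrane once. *Upk1a* pairs with *Upk2*, and *Upk1b* with *Upk3a* or, less commonly, *Upk3b*. The pairs leave the endoplasmic reticulum together, assemble into the rigid plaques of the asymmetric unit membrane, and reach the apical surface in fusiform vesicles. The plaques contribute to the permeability barrier of the bladder and *Upk1a* also carries the sugar to which the FimH adhesin of uropathogenic bacteria binds. *Upk3b* is made in mesothelium as well.

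The 5 genes lie on 5 chromosomes. In GENCODE vM21 of build GRCm38, *Upk1a* (ENSMUSG00000006313) spans chr7:30603092-30612847 on the minus strand and *Upk2* (ENSMUSG00000041523) spans chr9:44452715-44454976 on the minus strand. *Upk1b* (ENSMUSG00000049436) spans chr16:38773184-38800328 on the minus strand, *Upk3a* (ENSMUSG00000022435) chr15:85017141-85022547 on the plus strand and *Upk3b* (ENSMUSG00000042985) chr5:136038496-136046487 on the plus strand. The counts cover their exons, whose merged lengths are 1421 bases for *Upk1a*, 2089 for *Upk1b*, 1083 for *Upk2*, 1093 for *Upk3a* and 3530 for *Upk3b*. No other annotated gene overlaps any of the 5 on either strand.

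Promoters of 3 members are shown, as only these had one in the promoter set used here. They hold the bases just before the annotated start, 5′ to 3′ on the gene's own strand, from RefSeq (GRCm38.p6). Capitals mark matches, on either strand, to letters that stand for the sites of factors known in urothelium: AGATAA for GATA factors, CCNCNCCC for KLF5, AACCGGTT for GRHL factors and TGTTTAC for FOXA factors, the direct repeat bound by PPARG, and TATAAA for the TATA box. *Upk1b* and *Upk2* are named only.
*Upk1a* (chr7:30612848-30612984, minus strand): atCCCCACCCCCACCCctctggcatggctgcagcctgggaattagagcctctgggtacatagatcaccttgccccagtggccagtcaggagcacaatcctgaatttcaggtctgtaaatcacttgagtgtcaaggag
*Upk3a* (chr15:85016891-85017140, plus strand): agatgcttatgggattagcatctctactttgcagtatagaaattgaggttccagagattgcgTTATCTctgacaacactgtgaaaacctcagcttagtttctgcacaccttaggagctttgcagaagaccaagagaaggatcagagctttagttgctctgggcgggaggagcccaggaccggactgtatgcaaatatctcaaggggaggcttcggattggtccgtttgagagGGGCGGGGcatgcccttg
*Upk3b* (chr5:136038246-136038495, plus strand): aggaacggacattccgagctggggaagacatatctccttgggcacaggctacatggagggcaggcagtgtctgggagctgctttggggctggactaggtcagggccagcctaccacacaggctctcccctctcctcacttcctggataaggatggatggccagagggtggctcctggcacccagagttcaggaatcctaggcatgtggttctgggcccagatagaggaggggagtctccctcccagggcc
In *Upk1a* the capitals are 3 overlapping KLF5 matches, and in *Upk3a* a GATA match on the minus strand and a KLF5 match on the minus strand that lies closer to the start. The *Upk3b* stretch held none of the letters searched. A KLF5 match was present in 45.9% of 32851 promoters' 250 upstream bases and a GATA match in 9.99%, against 0.116% for GRHL, 3.17% for FOXA, 0.0335% for PPARG and 12.4% for the TATA box. The *Upk1a* stretch holds 137 bases, because those annotated inside the gene were left out. The shares over 250 bases are therefore not matched to it in length. A match is a run of letters and was not tested as a site.

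The libraries held 20391437 to 46269079 counts, WT replicate 1 being the deepest. Epithelial genes were abundant (10 pan-epithelial genes summed to 4894 to 7209 CPM, read counts scaled to a library of 1000000 after TMM normalisation), and so were fibroblast genes, at 8118 to 21505 CPM in 8 markers. Mesothelium markers summed to 3.74 to 8.51 CPM over 8 genes. The TMM factors were 1.07 to 1.12 in WT and 0.839 to 0.988 in the knockouts. Scaling thus lowered every WT level and raised every knockout level. *Prelp*, the gene removed in PRELP-/-, had 46, 46 and 74 counts there against 4848 to 19429 in the other libraries. *Omd* was too low to check its label, with 0, 1, 8 and 12 counts in WT, 5, 7 and 7 in PRELP-/- and 0 in every OMD-/- library. Within groups some libraries lay close together, namely replicate 1 with 2 and 3 with 4 in WT and 2 with 3 in each knockout, with a chi-square per degree of freedom of 3.1 to 11.6 against 24.5 to 223 for other same-group pairs. None agreed within sampling noise, which does not show that the close libraries came from separate animals. Each library was counted as 1. OMD-/- replicate 1 was nearer to PRELP-/- replicates 2 and 3 (11.8 and 15.8) than to its own group (26.8 and 24.5). Without PRELP-/- replicate 1, pairs across the knockouts lay at 11.8 to 21.5 and pairs of WT with a knockout at 42.8 to 85.4. Whether genotype or library preparation set WT apart was not tested. Both comparisons with WT share the same WT libraries. Genes of the Y chromosome were at 188 and 163 CPM in WT replicates 1 and 2 but at most 0.0439 CPM in WT 3 and 4. They stood at 117 CPM, 18.95 CPM and 18.71 CPM in PRELP-/- and at 18.4, 0.811 and 0.733 CPM in OMD-/- replicates 1, 2 and 3. PRELP-/- replicate 1 stood apart in another way: coding genes with exons of at most 1500 bases lay a median of 0.95 log2 units above the WT mean there and those over 5000 bases 0.38 below it (-0.38), whereas the short genes of the other libraries lay between -0.09 and 0.24.

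Uroplakin transcripts were among the most abundant of the bladder in every library. Per kilobase of merged annotated exon, a scale that allows for length, WT libraries had 2124 ± 181 CPM per kilobase (SD, n = 4) of *Upk1a*, 1632 ± 150 of *Upk3a*, 972 ± 80.7 of *Upk2*, 943 ± 129 of *Upk1b* and 150 ± 15.9 of *Upk3b*. Among all genes of a library, *Upk1a* ranked 6 to 8 on that scale, *Upk3a* 9 to 12, *Upk2* 16 to 34, *Upk1b* 20 to 32 and *Upk3b* 186 to 246. Every pair kept its order in 10 of 10 libraries except *Upk2* and *Upk1b*, whose ratio ran from 0.921 to 1.21, with *Upk2* the higher in 8. So these neighbours did not differ beyond their spread. *Upk3b*, the member that also pairs with *Upk1b*, was 13.6- to 18.4-fold below *Upk1a* per kilobase. The merged length counts every annotated exon and can exceed that of the transcript made. Without division by length the mean over the 10 libraries was 4090 CPM for *Upk1a* and 644 CPM for *Upk3b*. Together the 5 genes took 0.820%, 0.838%, 1.01% and 0.996% of all counts in the WT libraries. They took 1.24%, 0.961% and 0.973% in OMD-/- and 1.62%, 1.11% and 1.08% in PRELP-/-, so on this unscaled share OMD-/- overlapped WT and PRELP-/- did not. Bulk RNA cannot tell more umbrella cells from more RNA per cell.

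**Figure D1:**
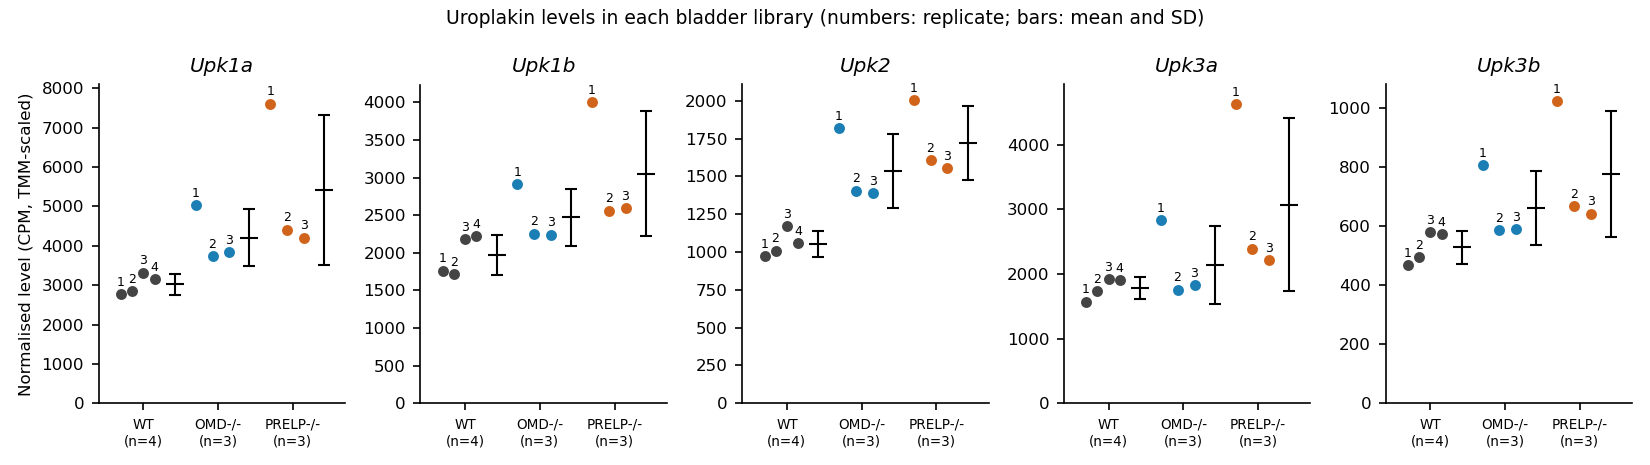
Normalised level of each uroplakin gene (y axis, CPM after TMM scaling, from 0) in the 4 WT, 3 OMD-/- and 3 PRELP-/- libraries (points, numbered by replicate), with the mean and SD as a bar beside each group. Replicate 1 of each knockout is the highest library of its group for all 5 genes, and in PRELP-/- every library lies above every WT library.

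Loss of OMD went with higher *Upk1a* and *Upk2*, which encode the partners of 1 heterodimer. *Upk2* had 971, 1009, 1172 and 1060 CPM in the WT libraries and 1818, 1405 and 1387 CPM in OMD-/-. The groups did not overlap, and OMD-/- replicate 1 was the highest. The mean went from 1053 ± 87.4 CPM (SD, n = 4) to 1537 ± 244 CPM (n = 3). The rise was 0.52 on the log2 scale (SE 0.11, 95% interval 0.27 to 0.77), with an adjusted p of 0.00654 in edgeR (two-sided quasi-likelihood test, Benjamini-Hochberg adjustment over the 16647 genes tested).

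*Upk1a*, the tetraspanin that carries *Upk2*, had 2767, 2844, 3314 and 3149 CPM in WT against 5034, 3731 and 3838 CPM in OMD-/-. Again no library overlapped and replicate 1 was the highest of its group. The mean went from 3019 ± 257 CPM (SD, n = 4) to 4201 ± 723 CPM (n = 3). The log2 difference was 0.45 (SE 0.12, 95% interval 0.19 to 0.72) with an adjusted p of 0.0171 (edgeR).

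The partners of the other heterodimer did not pass the test, though with the trend on exon length removed from each library *Upk1b* did (log2 difference 0.34, edgeR adjusted p = 0.0315, with 15.3% of tested genes called higher at that setting). *Upk1b*, the second tetraspanin, had 1764, 1712, 2185 and 2219 CPM in WT and 2912, 2255 and 2240 CPM in OMD-/-. Its groups did not overlap, but the 2 lower OMD-/- libraries lay just above WT replicate 4, and the log2 difference was 0.30 (95% interval 0.0080 to 0.59, edgeR adjusted p = 0.112). *Upk3a*, the single-pass partner of *Upk1b*, had 1572, 1737, 1922 and 1903 CPM in WT and 2837, 1756 and 1823 CPM in OMD-/-, so that the groups overlapped and only replicate 1 was high. Its log2 difference was 0.24 (95% interval -0.11 to 0.58, edgeR adjusted p = 0.287), and 0.00044 without that library. *Upk3b* had 468, 497, 580 and 574 CPM in WT and 808, 588 and 591 CPM in OMD-/-, groups that were apart by less than the spread within WT. Its log2 difference was 0.30 (95% interval 0.016 to 0.58, edgeR adjusted p = 0.104). Whether *Upk1a* and *Upk2* differed more than the other 3 was not tested.

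So 2 of 5 members rose, with a background of 14.3% of 16647 tested genes called higher (15.1% lower, 29.4% in either direction), and in 4 of 5 every OMD-/- library lay above every WT library, as for 20.5% of tested genes. The members' median log2 difference was 0.30, against -0.00020 over all tested genes, and 11.6% of tested genes lay above *Upk2*. Other cell types moved with this comparison: the 8 fibroblast genes summed to 8118 to 9374 CPM in WT and 17806 to 21505 CPM in OMD-/-, and 8 leukocyte genes to 589 to 651 CPM and 835 to 1549 CPM. In edgeR's test 5 of 8 fibroblast genes (*Col1a1* log2 difference 1.58) and 6 of 8 leukocyte genes rose, and their part in the uroplakin result was not tested. No member passed with the close pairs summed into single replicates (adjusted p = 0.0833 for *Upk2* and 0.153 for *Upk1a*, edgeR), and *Upk1a* did not pass without WT replicate 1 or 2 (edgeR adjusted p = 0.0520 and 0.0521). Among the libraries under 1 CPM of Y chromosome genes (WT 3 and 4, OMD-/- 2 and 3) *Upk2* and *Upk1a* were higher by 0.30 and 0.21, *Upk1b* and *Upk3b* differed by 0.0078 and 0.0092, and *Upk3a* was lower (-0.12) on the log2 scale. These libraries are a close pair in each group, and 8989 of 16740 genes passed among them, so no p is given.

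In PRELP-/- the group mean was the highest of the 3 genotypes for all 5 genes, but with a wide spread, and *Upk2* alone passed the test. *Upk2* had 2004, 1606 and 1554 CPM in PRELP-/-, all above the WT libraries given earlier, with a mean of 1721 ± 246 CPM (SD, n = 3). The rise was 0.68 on the log2 scale (SE 0.17, 95% interval 0.29 to 1.07, edgeR adjusted p = 0.0477). It was lost on leaving out any single library other than PRELP-/- replicate 1, where the adjusted p (edgeR) ran from 0.0754 to 0.135.

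*Upk1a* had 7607, 4406 and 4208 CPM in PRELP-/-, and *Upk1b* had 4005, 2558 and 2590 CPM. Replicate 1 was far above the others for both tetraspanins, and none of the 3 libraries overlapped WT. The log2 differences were 0.82 for *Upk1a* (SE 0.25, edgeR adjusted p = 0.0830) and 0.61 for *Upk1b* (SE 0.22, edgeR adjusted p = 0.132).

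*Upk3a* had 4622, 2390 and 2213 CPM and *Upk3b* had 1025, 668 and 643 CPM in PRELP-/-. These too were apart from WT with replicate 1 the highest. The log2 differences were 0.76 for *Upk3a* (SE 0.28, edgeR adjusted p = 0.125) and 0.53 for *Upk3b* (SE 0.21, edgeR adjusted p = 0.145).

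Thus 1 of 5 members rose, against a background of 1.4% of 16581 tested genes called higher (5.89% lower, 7.29% in either direction), and in 5 of 5 every PRELP-/- library lay above every WT library, as for 14.5% of tested genes. The median log2 difference was 0.68, against 0.02 over all tested genes. Uroplakin exons are short: 4.20% of 11108 coding genes were shorter than those of *Upk1a*, 1.83% than *Upk2*, 1.89% than *Upk3a*, 11.5% than *Upk1b* and 32.9% than *Upk3b*. In PRELP-/- replicate 1, whose short genes were high, *Upk2*, *Upk1a* and *Upk3a* lay 0.93, 1.34 and 1.38 log2 units above the WT mean, beside 0.95 for the median gene of at most 1500 bases. *Upk1b* lay 1.03 above it, beside 0.52 for the median gene of its own, longer exon class, and *Upk3b* 0.96, beside 0.15 for its class of up to 5000 bases. In replicates 2 and 3, where those short genes had medians of 0.11 and 0.05, *Upk2* lay 0.61 and 0.56 and *Upk1a* 0.55 and 0.48 above WT.

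Without replicate 1, *Upk1a* (log2 difference 0.50, edgeR adjusted p = 0.00749), *Upk2* (0.57, adjusted p = 0.0040) and *Upk3a* (0.35, adjusted p = 0.0380) passed, while *Upk1b* (0.37, adjusted p = 0.0665) and *Upk3b* (0.29, adjusted p = 0.0904) did not, while 10.7% of 17120 tested genes were called higher. With the trend on exon length removed from each library the same 3 members passed, at 0.64, 0.52 and 0.53, and 5.17% of tested genes were called higher. With the close pairs summed none passed (edgeR adjusted p 0.529 to 0.571). Fibroblast genes summed to 9660 to 19708 CPM in PRELP-/- (2 of 8 rose in edgeR's test), and their part was not tested.

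**Figure D2:**
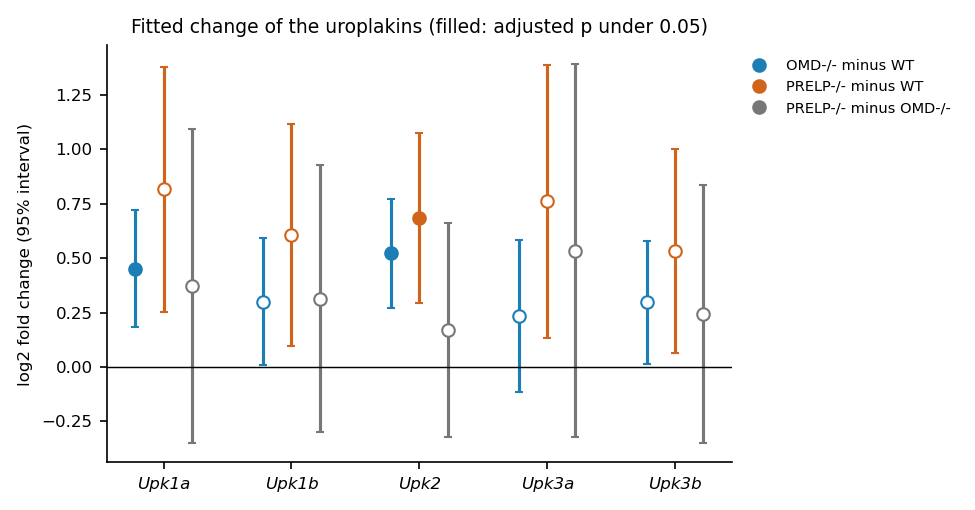
Log2 difference in level of each uroplakin gene (points, with 95% intervals) in OMD-/- and PRELP-/- against WT and in PRELP-/- against OMD-/- by edgeR. Filled points passed at an adjusted p under 0.05 (*Upk1a* and *Upk2* in OMD-/-, *Upk2* in PRELP-/-); the interval of *Upk3a* in OMD-/- and all 5 intervals of PRELP-/- against OMD-/- hold 0.

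**Figure D3:**
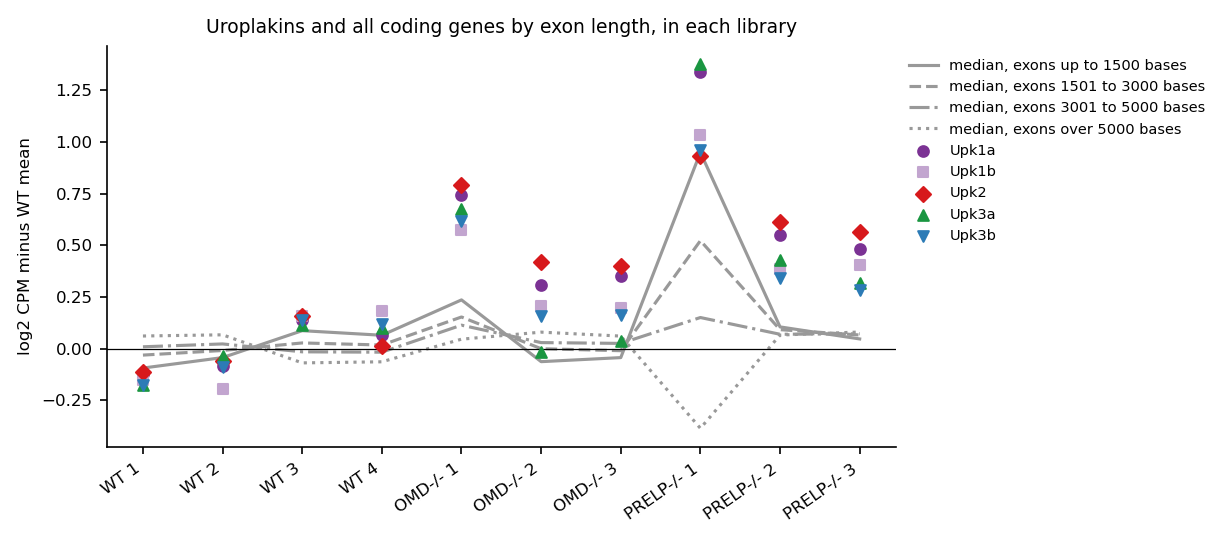
Log2 level of each uroplakin gene in each library relative to the WT mean (y axis, coloured points), beside the median of all coding genes in 4 exon length classes (grey lines). In PRELP-/- replicate 1 *Upk1a*, *Upk2* and *Upk3a* lie at 1.34, 0.93 and 1.38 with their class median at 0.95, *Upk1b* at 1.03 with its class at 0.52, and *Upk3b* at 0.96 with its class at 0.15.

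No uroplakin passed the test between the knockouts. PRELP-/- exceeded OMD-/- by 0.37 for *Upk1a* (95% interval -0.35 to 1.09), 0.31 for *Upk1b* (-0.30 to 0.93), 0.17 for *Upk2* (-0.32 to 0.66), 0.53 for *Upk3a* (-0.32 to 1.39) and 0.24 for *Upk3b* (-0.35 to 0.84) on the log2 scale. None of 5 passed (edgeR adjusted p 0.690 to 0.725) and none had an unadjusted p under 0.05, the smallest being 0.182, against 0.00633% of 15805 tested genes called, and in 0 of 5 were the groups apart with PRELP-/- the higher (6.1% of tested genes, against 8.75% with PRELP-/- the lower). DESeq2 and limma-voom called none either. The intervals allow differences of over 1 log2 unit for *Upk1a* and *Upk3a*, so equal levels were not shown. Within equal replicate numbers the PRELP-/- library was the higher in 3 of 3 cases for each of the 5 genes. The excess was 0.28 to 0.70 log2 units for *Upk3a* and 0.14 to 0.19 for *Upk2*. Replicates 2 and 3 lie close together in both groups. Those of OMD-/- did not correlate best with their own number in PRELP-/-, so pairs were not established. With the number as a block, *Upk3a* had a log2 difference of 0.48 (SE 0.20, unadjusted p = 0.0486, edgeR adjusted p = 0.503) and no member passed (edgeR adjusted p 0.503 to 0.638). Without PRELP-/- replicate 1 the differences ran from -0.02 (*Upk3b*) to 0.10 (*Upk3a*).

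To read the uroplakins against the epithelial RNA of the same library, each was divided by the geometric mean of 10 pan-epithelial genes. These genes themselves summed to 4894 to 5339 CPM in WT, 5561 to 6889 CPM in OMD-/- and 6082 to 7209 CPM in PRELP-/-. The log2 ratio of *Upk2* was 1.70, 1.73, 2.05 and 1.89 in WT, 2.29, 2.22 and 2.17 in OMD-/- and 2.45, 2.21 and 2.21 in PRELP-/-. Both knockouts lay above every WT library. The difference was 0.39 in OMD-/- and 0.45 in PRELP-/- (exact permutation test, two-sided, p = 0.0571 in each, adjusted 0.131 over 16 ratios).

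*Upk1a* was likewise apart from WT in both knockouts, by 0.32 in OMD-/- (exact permutation p = 0.0571, adjusted 0.131) and 0.53 in PRELP-/- (exact permutation p = 0.0286, adjusted 0.114). Its log2 ratios in PRELP-/- were 4.37, 3.67 and 3.64, and the difference was 0.29 without replicate 1, whose short genes were high. *Upk1b*, *Upk3a* and *Upk3b* overlapped WT on this scale, with differences of 0.17, 0.08 and 0.16 in OMD-/- and 0.35, 0.45 and 0.27 in PRELP-/-. Without PRELP-/- replicate 1 that of *Upk3a* was 0.15. None of the 16 ratios passed after adjustment, and 0.0286 is the smallest p that 35 splits of 4 against 3 libraries can give. Ratios at that floor had an adjusted p of 0.114, so a few changed ratios could not have passed. No conclusion is drawn from the lack of a pass.

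**Figure D4:**
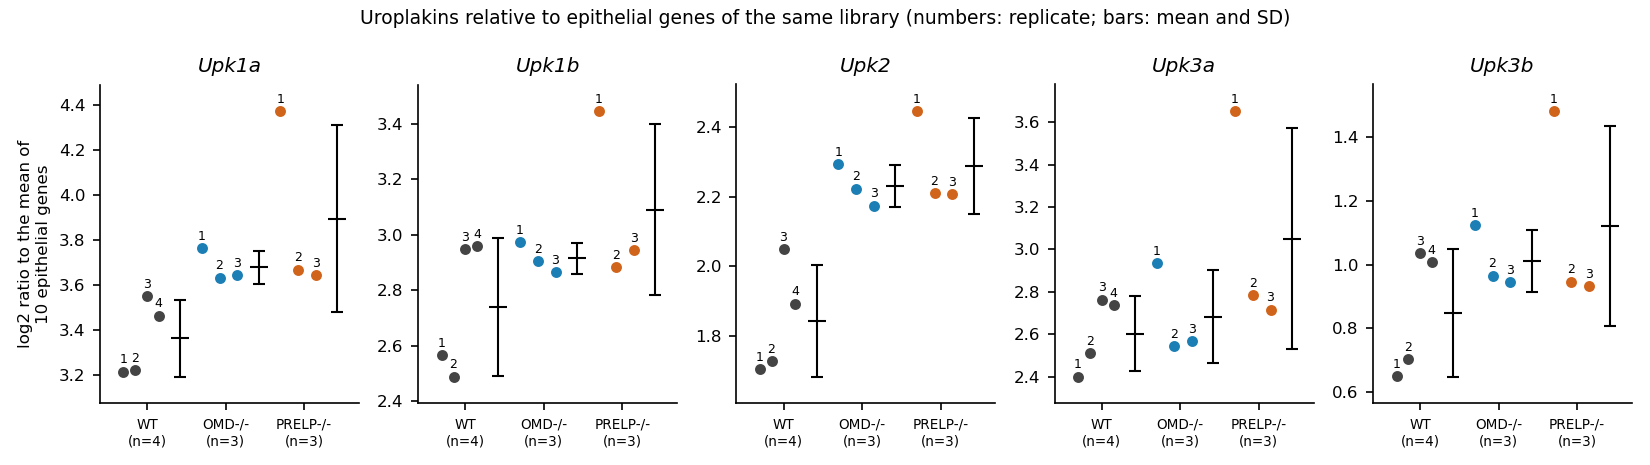
Log2 ratio of each uroplakin gene to the geometric mean of 10 pan-epithelial genes in each library (points) of WT, OMD-/- and PRELP-/-. *Upk1a* and *Upk2* are above all WT libraries in both knockouts, while the other 3 overlap WT.

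The proportions of the partners were compared within each library. The log2 ratio of *Upk2* to its partner *Upk1a* averaged -1.52 ± 0.035 in WT (SD, n = 4) and -1.45 ± 0.035 in OMD-/- (n = 3), a difference of 0.07 (exact permutation p = 0.0286, adjusted 0.114), and -1.61 ± 0.28 in PRELP-/- (exact permutation p = 0.829, adjusted 0.829). *Upk3a* to *Upk1b* averaged -0.14 ± 0.11 in WT, -0.23 ± 0.17 in OMD-/- and -0.04 ± 0.22 in PRELP-/-, all overlapping. *Upk3b*, set against the other 4, was lower in each knockout: -1.82 to -1.76 in WT, -1.87 to -1.86 in OMD-/- and -1.999 to -1.940 in PRELP-/-. Those groups were apart (differences of -0.08 and -0.17, exact permutation p = 0.0286 each, adjusted 0.114).

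Across the 10 libraries the log2 levels of the 5 members correlated with r of 0.839 (*Upk2* and *Upk3a*) to 0.986 (*Upk1b* and *Upk3b*), and 0.840 to 0.993 without PRELP-/- replicate 1. The points share group, depth and close pairs of libraries, so these values are descriptions. Of 11498 genes searched, those most like the mean of *Upk1a*, *Upk1b*, *Upk2* and *Upk3a* over 10 libraries were *Abhd12* (r = 0.994), *Decr1* (0.990), *Vsig2* (0.989), *Krt18* (0.988) and *Pef1* (0.986). *Krt18* is a keratin of simple epithelia and umbrella cells. Those most like *Upk3b* were *Psca* (0.989), a surface protein of the upper urothelium, *Tprgl* (0.989), *Gm35638* (0.987), *Cdipt* (0.986) and *Asna1* (0.985).

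Of 11 umbrella cell genes tested, 1 rose and 1 fell in OMD-/-, beside 14.3% and 15.1% of all tested genes: *Krt18* (1563 to 2019 CPM, log2 difference 0.35, edgeR adjusted p = 0.0312) and *Gsdmc2* (276 to 110 CPM, -1.36, adjusted p = 0.0356), a member of a family of near-identical genes whose counts are uncertain. In PRELP-/- *Gsdmc2* fell (-1.67, edgeR adjusted p = 0.0365) and none of 11 rose, with *Krt18* at 0.68 (edgeR adjusted p = 0.0857). Of all tested genes 1.4% were called higher and 5.89% lower there. The list's median log2 difference was 0.14 in each knockout.

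Of 10 genes of vesicle traffic, the route by which plaques reach the surface, 1 rose and 2 fell in OMD-/-, a share close to the 29.4% of all tested genes called there. None passed in PRELP-/-, where 7.29% of all tested genes were called. The medians were 0.04 and 0.24. *Vps33a*, a vesicle tethering factor, rose by 0.40 (edgeR adjusted p = 0.00525). *Rab27b*, a GTPase on fusiform vesicles, fell by 0.34 (edgeR adjusted p = 0.0475), and its effector *Sytl2* fell by 0.32 (edgeR adjusted p = 0.0275). In PRELP-/- the values of *Vps33a*, *Rab27b* and *Sytl2* were 0.30, -0.38 and -0.66, and none passed. *Sytl2*, with exons of 13941 bases, had 130 CPM in replicate 1, whose long genes were low. It had 399 and 398 CPM in replicates 2 and 3, against 412 to 525 CPM in WT.

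Of 12 regulators of urothelial differentiation, 1 rose and 3 fell in OMD-/-, again near the 29.4% of all tested genes. None passed in PRELP-/- (7.29% of all tested genes called). These calls were in OMD-/-. *Elf3* rose by 0.32 (edgeR adjusted p = 0.0341), while *Klf5* fell by 0.29 (adjusted p = 0.0217) and *Tbx3* fell by 0.35 (adjusted p = 0.0297). *Grhl2* also passed (-0.39, edgeR adjusted p = 0.0493), but it overlaps an antisense gene and the counting strand is not given, so its level is uncertain. *Pparg*, *Gata3* and *Foxa1*, regulators of urothelial identity, had log2 differences of -0.18, -0.03 and -0.07 in OMD-/- and none passed.

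Of 9 basal urothelium genes tested 5 rose in OMD-/- (among them *Cd44* by 0.51, *Krt15* by 0.40, *Itga6* by 0.37 and *Lamb3* by 0.36), with a median of 0.36 and 14.3% of all tested genes called higher. None of 10 tested passed in PRELP-/-, with a median of 0.22 and 7.29% of all tested genes called. Of 10 pan-epithelial genes *Cdh1*, the adherens junction cadherin, rose in OMD-/- by 0.40 (edgeR adjusted p = 0.00968) and none passed in PRELP-/-. Of 18 other tetraspanins, the family of *Upk1a* and *Upk1b*, 5 rose and 1 fell in OMD-/- (29.4% of all tested genes called), among them *Cd37*, a tetraspanin of leukocytes (1.46, edgeR adjusted p = 0.0115). In PRELP-/- 1, *Tspan13*, rose (0.65, edgeR adjusted p = 0.0480), with 1.4% of all tested genes called higher.

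**Figure D5:**
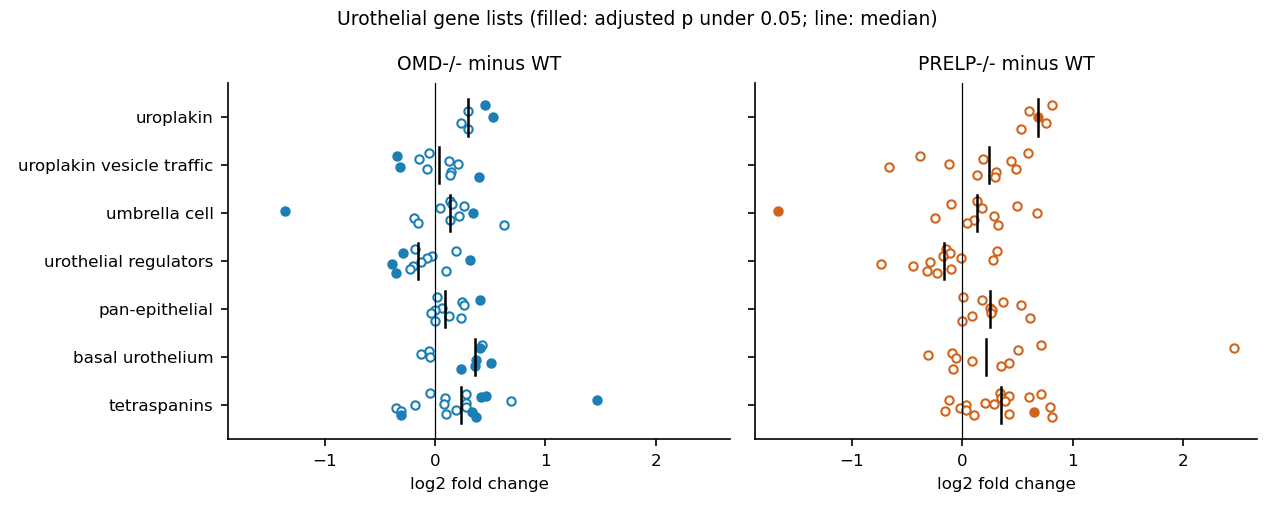
Log2 difference from WT of each gene (points, x axis) in 7 lists (rows), for OMD-/- and PRELP-/-, with genes that passed edgeR's test filled and each list's median as a line. The uroplakins lie above 0 in both knockouts, while the regulators lie mostly below it. In PRELP-/- the regulators summed to 2221 CPM in replicate 1, whose long genes were low, and to 3006 and 2995 CPM in replicates 2 and 3. The WT range was 2657 to 3078 CPM.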

How the data were processed

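Polyadenylated RNA of 10 bladder samples had been made by the authors into strand-specific libraries whose adaptors held molecular identifiers. The authors deposited 1 raw read count per gene and library, without normalization. The submitters' processing notes list bcl2fastq, STAR 2.5.2b, featureCounts and DESeq2 and the builds GRCm38 and hg38, while the header of the count files names HISAT2, so the aligner is uncertain. Which strand was counted, and whether the identifiers served to remove duplicates, was not given in the sources used here. Deposited tables of the authors' DESeq2 comparisons hold fold changes and p-values and were not used.

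Gene identifiers were all matched to GENCODE vM21. Counts were compared with R 4.3.3 and edgeR 4.0.16 on the libraries of the 2 groups at a time (TMM scaling, filterByExpr, robust quasi-likelihood fit, two-sided test, Benjamini-Hochberg adjustment over all tested genes, threshold 0.05). CPM are counts scaled to a TMM-adjusted library of 1000000, and log2 CPM used a prior count of 2. Precision is limited by the spread between libraries more than by counting. Ratios were compared by exact permutation (scipy 1.17.1). limma 3.58.1 and DESeq2 1.42.0 gave alternatives, and the scripts were tested on simulated data. The members and gene lists were chosen with earlier results of these data known. Named genes were the 5 members, list genes that passed in a knockout with a mean of at least 1 CPM (at most 6 a list), and the 5 genes most like the members. *Pparg*, *Gata3* and *Foxa1* were named in addition, after their values were seen. A gene chosen by the rule is not reported here.

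To see whether equal replicate numbers pair libraries, each library's deviations from its group mean were correlated across genes. Equal numbers of OMD-/- and PRELP-/- gave r of 0.38, 0.27 and 0.24, which met a rule of r over 0.1 for every pair. OMD-/- 2 with PRELP-/- 3 gave 0.31 and OMD-/- 3 with PRELP-/- 2 gave 0.26, each above the equal number. The rule therefore does not tell replicate 2 from 3. WT with OMD-/- (0.0054, -0.045 and 0.0082) and WT with PRELP-/- (-0.12, 0.19 and -0.15) did not meet it. The main test between the knockouts used no pairs, and the replicate number served as a block only in an alternative.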

Additional observations from a re-analysis of the deposited data

How the results depend on the processing

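Every alternative left the sign of all members in both comparisons with WT as reported, except *Upk3a* in OMD-/- among the libraries under 1 CPM of Y chromosome genes (-0.12). For OMD-/- the count of members that passed was 2, and it was 0 in 1 fit over all 3 groups, 0 with close pairs summed, 3 with the length trend removed, 3 with no low-count filter, 3 among the libraries under 1 CPM of Y chromosome genes (*Upk3a* by its lower level) and 1 to 2 when leaving out each library in turn. The share of all tested genes called higher was 14.3%. It was 6.56% in 1 fit, 3.41% with close pairs summed, 15.3% with the length trend removed and 7.82% with no filter. Among the libraries under 1 CPM of Y chromosome genes it was 27.4% (53.7% called in either direction). Leaving out each library gave 8.04% to 14.2%. For PRELP-/- the count was 1. It was 4 by DESeq2, 0 with no low-count filter, 2 in 1 fit over all 3 groups, 0 with a Y chromosome gene covariate, 5 by limma-voom with sample weights, 3 with the length trend removed, 0 with close pairs summed, and 0 to 3 when leaving out each library in turn. Of all tested genes 1.4% were called higher. That share was 7.13% by DESeq2, 0.668% with no filter, 5.77% in 1 fit and 0.899% with the Y covariate. It was 20.5% by limma-voom, 5.17% with the length trend removed, 0% with close pairs summed and 0.117% to 10.7% when leaving out each library. The causes were not tested. Summing close pairs, removing the length trend and keeping libraries under 1 CPM of Y chromosome genes were chosen after seeing the data. With the replicate number as a block, 2 members passed in OMD-/- and 0 in PRELP-/- (adjusted p 0.321 for *Upk2*, edgeR), and these numbers were not treated as pairs, nor did every library correlate best with its own number. That setting called 10.1% and 0% of all tested genes higher. The block changed no member's call between the knockouts, where equal numbers met the rule on r but pairs were not established, and gave 43 genes in place of 1.

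In PRELP-/- against OMD-/- the Y chromosome covariate turned all 5 differences negative (*Upk1a* -0.28, *Upk1b* -0.22, *Upk2* -0.21, *Upk3a* -0.37, *Upk3b* -0.34), the length trend turned *Upk2* (-0.051), and leaving out PRELP-/- replicate 1 turned *Upk3b* (range over libraries left out -0.019 to 0.40). Without that library 2 ratios in PRELP-/- turned as well (*Upk2* to *Upk1a*, range -0.17 to 0.073, and *Upk3a* to *Upk1b*, range -0.025 to 0.19), and without OMD-/- replicate 1 *Upk3a* relative to pan-epithelial genes turned in OMD-/- (range -0.046 to 0.15).

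Genes called over the whole table, 4899 in OMD-/-, were 2485 in 1 fit over all 3 groups, 1658 with close pairs summed, 8989 in the libraries under 1 CPM of Y chromosome genes, and 2951 to 4850 when leaving out each library. The 1209 of PRELP-/- were 2925 by DESeq2, 115 with the block, 2485 in 1 fit, 6973 by limma-voom, 2248 with the length trend removed, 13 with close pairs summed and 475 to 3807 when leaving out each library. Between the knockouts the 1 gene was 54 by DESeq2, 5 with no filter, 3 in 1 fit, 5 with the Y covariate, 1012 by limma-voom, 0 with close pairs summed and 1 to 36 when leaving out each library. Of the PRELP-/- calls 19.2% were higher, against 40.4% by DESeq2, 48.8% by limma-voom, 39.3% in 1 fit, 38.1% with the length trend removed, 48.2% without PRELP-/- replicate 1, 3.65% to 9.21% without any other library, and 0% with the block or with close pairs summed.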

Other observations

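Genes of tissues outside the urothelium gave these values in the same libraries. Of 10 smooth muscle genes none passed in either knockout by edgeR, with medians of -0.31 in OMD-/- and -1.47 in PRELP-/- on the log2 scale, and their sum ran from 539 to 1718 CPM in WT. Of 6 endothelium genes none passed, with medians of 0.65 and 0.46. Over all tested genes 29.4% were called in OMD-/- and 7.29% in PRELP-/-. Nerve genes summed to 4.31 to 11.6 CPM and skeletal muscle genes to 0.186 to 13.8 CPM. The 5 male accessory gland genes were at 0 in every library.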
